A study of Mus musculus with 40 samples.

Results

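The comparison described here is that of CT26 tumors from mice given anti-PD-1 alone with tumors from mice given an isotype control mAb. It holds 10 of the 40 tumors whose RNA was sequenced, the 5 labelled anti-PD1 FcS and the 5 labelled as mIgG2a isotype control, and every gene of the count table was considered. All mice were BALB/c and carried a subcutaneous tumor grown from 1000000 cells of CT26, a mouse colon carcinoma line, and received mAbs intraperitoneally on days 6, 9 and 12 before tumors were collected on day 13. The anti-PD-1 carried the variable regions of clone RMP1-14 in an Fc-silent (FcS) mIgG2a backbone, and the isotype control was motavizumab, a mAb against a viral protein, as mIgG2a. The 2 groups therefore differed in the binding site and in the Fc part of the mAb, and these cannot be told apart. The other 30 mice received anti-TGF-β, anti-GARP:TGF-β1 WT (Fc-active mIgG2a) or anti-GARP:TGF-β1 FcD (Fc-dead mIgG2a), each with or without the same anti-PD-1 FcS (5 mice per group), and they serve here to ask what the same mAb did when added to another and to share, in 1 model of all 8 groups, the estimate of spread behind every SE, interval and p.

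PD-1, encoded by Pdcd1, is an inhibitory receptor of activated and chronically stimulated T cells. Its ligands PD-L1 (Cd274) and PD-L2 (Pdcd1lg2) are carried by tumor cells, macrophages and dendritic cells, and PD-L1 is induced by IFN-γ. When the receptor is engaged, the phosphatase SHP-2 dampens signals from the T cell receptor and from CD28, so that blockade is known to raise killing and cytokine release by T cells that already recognise the tumor. IFN-γ released by such cells acts through IRF1, among other factors, on genes for antigen presentation, guanylate-binding proteins and chemokines.

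Whole tumor fragments were sequenced, so fewer cells of a type and less RNA per cell cannot be told apart in any value below. Totals of the 10 count columns ran from 12762129 to 16232524, and the comparison of the group means of these totals gave p = 0.769841 (exact permutation test, 2-sided). In the table of 54087 genes, 14760 passed the filter on low counts and were tested. In 2 of the 10 tumors, genes of other tissues stood apart. Anti-PD-1 mouse 2 held 249 CPM (counts per 1000000, with library sizes scaled by TMM) summed over 16 skeletal muscle genes, against 4.09 to 13.2 CPM in the other 9 mice, and 47.8 CPM over 13 skin epithelium genes, against 5.50 to 8.42 CPM. Anti-PD-1 mouse 1 held 2035 CPM over 14 adipocyte genes, against 570.5 to 933 CPM in the others, and 8111 CPM over 21 fibroblast and matrix genes, against 4561 to 5782 CPM. Libraries numbered up to 60 (2 isotype and 3 anti-PD-1 mice, these 2 tumors among them) carried Ddx3y transcripts at 8.71 to 20.9 CPM and Xist at no more than 0.428 CPM, and those above 60 (3 isotype and 2 anti-PD-1 mice) carried Xist at 88.4 CPM or more and no count of Ddx3y. Ddx3y is a gene of the Y chromosome and Xist is transcribed in female cells, but the labels give no sex. Sex and library number cannot be told apart in these 10 mice. Between these library parts the difference of anti-PD-1 minus isotype (of mean log2 CPM for a gene, of the mean log2 of the summed CPM for a list) had opposite signs for 21 of 30 gene lists and 25 of 66 named genes. It was beyond 0.25 either way in both parts for 4 of these lists and 15 of these genes, whose values in the 2 parts are given below. The differences between the parts were not tested.

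No gene differed between anti-PD-1 and isotype tumors past the threshold. Of 14760 genes, 0 (0%) had an adjusted p under 0.05 in edgeR's quasi-likelihood test, and the smallest adjusted p was 0.868. At an unadjusted p under 0.05 there were 141 genes (0.955%), 89 higher (0.603%) and 52 lower (0.352%) with anti-PD-1, and 184 genes when only the 10 mice were fitted. The 5 anti-PD-1 mice lay on the same side of all 5 isotype mice for 40 genes (0.271%), 16 higher (0.108%) and 24 lower (0.163%). The 95% intervals reached 0.32 on the log2 scale to either side at the median, and the whole interval lay within a 2-fold change either way for 12219 genes (82.8%). Every log2 fold change given below for this comparison is anti-PD-1 minus isotype with its SE, and none of them had an adjusted p under 0.868.

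Pdcd1, the gene of the targeted receptor (chromosome 1, 94038305 to 94052553, minus strand, GRCm38), was measured at 14.4, 11.4, 10.1, 9.59 and 6.65 CPM in isotype mice 1 to 5 and at 1.85, 11.9, 1.07, 3.02 and 3.25 CPM in anti-PD-1 mice 1 to 5. Thus 4 of 5 anti-PD-1 mice lay below every isotype mouse, and mouse 2 lay among them. The log2 fold change was -1.30 ± 0.63 (95% interval -2.58 to -0.03), with an unadjusted p of 0.0453 and no call after adjustment. Without mouse 2 it was -2.18, with an unadjusted p of 0.00232. In 8 of the 10 fits with 1 mouse left out, the unadjusted p was 0.0537 to 0.110, with log2 fold changes of -1.33 to -1.06. Within the library parts the difference of mean log2 CPM was -2.08 in libraries up to 60 and -1.42 in those above. A mAb that binds the protein does not delete the gene, so Pdcd1 RNA is no check of the labels here.

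Cd8a, which encodes the coreceptor chain of cytotoxic T cells, gave a like picture. It was at 18.2, 21.97, 12.9, 18.2 and 6.51 CPM in isotype mice and at 2.29, 24.9, 1.21, 5.60 and 4.83 CPM in anti-PD-1 mice, again with all but mouse 2 below every isotype mouse. The log2 fold change was -0.99 ± 0.66 over all mice, -2.15 without mouse 2 and -1.19 to -0.73 without any 1 of the other 9 mice. Tox, a transcription factor of exhausted T cells, was at 2.78, 3.06, 1.32, 3.22 and 0.901 CPM in isotype mice and at 0.443, 1.38, 0.285, 1.03 and 0.649 CPM with anti-PD-1, a log2 fold change of -1.56 ± 0.59 (unadjusted p = 0.0128, and 0.00661 to 0.037 with 1 mouse left out). For Tox, 3 of 5 anti-PD-1 mice lay below all isotype mice and none above, and the difference was -2.08 in libraries up to 60 and -0.84 in those above. Tox rested on few reads, from 4 to 45 counts per tumor. Cd3e, a signalling chain of the T cell receptor complex, gave -0.90 ± 0.58, and Lag3, another inhibitory receptor of T cells, -0.48 ± 0.49. Their unadjusted p-values in the edgeR fit of all mice were 0.13 and 0.339. Without mouse 2 the log2 fold changes were -1.57 and -1.29, with unadjusted p-values of 0.0149 and 0.0122 in the edgeR fit. Without mouse 1 they were -0.84 and -0.25. With any anti-PD-1 mouse other than mouse 2 left out, the unadjusted p was 0.183 to 0.26 for Cd3e and 0.449 to 0.617 for Lag3.

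**Figure D1:**
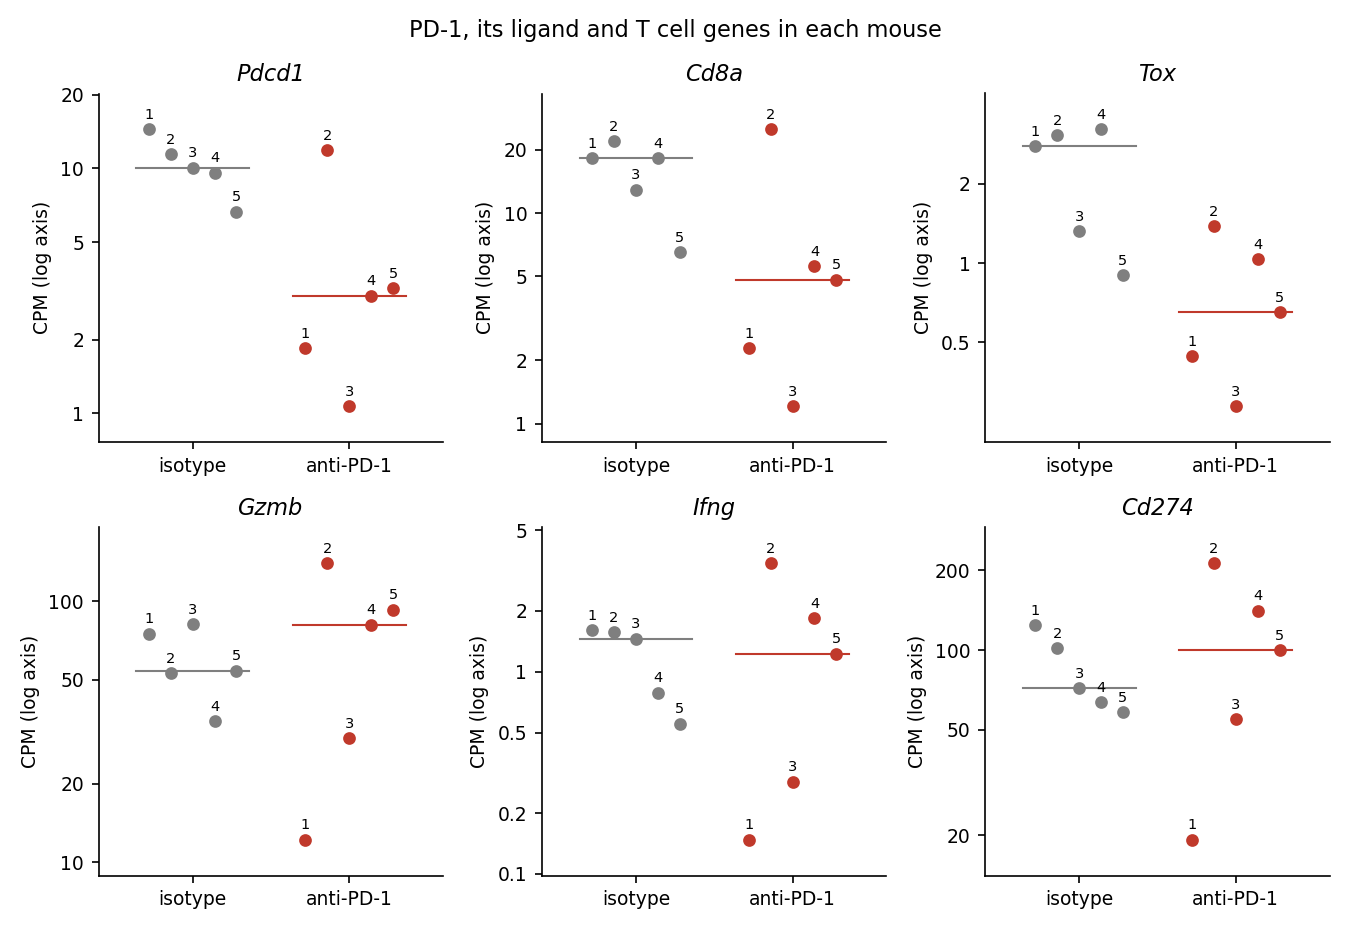
CPM of 6 genes (log axis) in each isotype mouse (grey) and each anti-PD-1 mouse (red), with mouse numbers beside the points and lines at the group medians. For Pdcd1 and Cd8a, anti-PD-1 mice 1, 3, 4 and 5 lie below the isotype mice and mouse 2 does not, whereas for Gzmb, Ifng and Cd274 the anti-PD-1 mice lie on both sides of the isotype mice.

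Cd4, Foxp3 and Tigit overlapped more between the groups. Cd4, the coreceptor of helper and regulatory T cells, was at 1.36 to 2.76 CPM in isotype mice and 1.99 to 3.24 CPM in anti-PD-1 mice (0.39 ± 0.46), and Foxp3, the lineage factor of regulatory T cells, at 0.393 to 1.17 and 0.577 to 2.0004 CPM (0.71 ± 0.50). Tigit, an inhibitory receptor of T and NK cells, was at 8.47 to 12.7 CPM in isotype mice and 6.56 to 12.6 CPM with anti-PD-1 (-0.22 ± 0.19). Tcf7, a factor of memory-like T cells, gave 0.27 ± 0.60, and Ctla4, an inhibitory receptor that competes with CD28, 0.16 ± 0.72 from 2 to 23 counts per tumor. Foxp3 and Tcf7 rested on few reads, from 5 to 29 and from 12 to 41 counts per tumor. Lrrc32, which encodes GARP, gave 0.43 ± 0.44, and Tgfb1 -0.05 ± 0.16, the latter with a 95% interval from -0.38 to 0.28. Without mouse 1 the log2 fold change was 0.003 for Tcf7 and 0.21 for Lrrc32, and without mouse 2 it was 0.37 for Foxp3. Over the 20 T cell genes the median log2 fold change was -0.42 (0.01 over all 14760 genes), 18 were below 0, and none had an unadjusted p under 0.05. Without mouse 2 the median was -0.97 and 7 of the 20 had an unadjusted p under 0.05, all lower with anti-PD-1, against 1.26% of the 14939 genes tested without that mouse, whereas without mouse 1 the median was -0.33 and 0 of 20 had one. Zap70, the kinase next to the receptor complex, was at 3.30 to 6.80 CPM in isotype mice, at 2.28 to 2.74 CPM in 4 anti-PD-1 mice and at 6.28 CPM in mouse 2.

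Genes of killing and of cytokine release had anti-PD-1 mice on both sides of the isotype mice. Gzmb, which encodes the protease granzyme B, was at 75.0, 52.9, 81.8, 34.7 and 54.1 CPM in isotype mice and at 12.2, 140, 29.9, 81.3 and 92.6 CPM in anti-PD-1 mice. So 2 anti-PD-1 mice lay above and 2 below all isotype mice, and the log2 fold change was 0.25 ± 0.40. Ifng, the gene of IFN-γ itself, was at 1.61, 1.57, 1.46, 0.786 and 0.554 CPM in isotype mice and at 0.148, 3.45, 0.285, 1.84 and 1.23 CPM in anti-PD-1 mice (0.22 ± 0.49), which is 2 to 50 counts per tumor. Prf1, the gene of the pore-forming protein perforin, gave -0.21 ± 0.39, and Tnf, a cytokine of T cells and macrophages, 0.23 ± 0.34. Without anti-PD-1 mouse 2 the values of Gzmb, Ifng and Tnf were -0.15, -0.45 and -0.27, and without mouse 1 they were 0.52, 0.50 and 0.47. Within the library parts the signs differed. The difference was -0.76 in libraries up to 60 and 0.69 in those above for Gzmb, -1.19 and 0.71 for Ifng, -1.01 and 0.26 for Prf1, and -0.36 and 0.28 for Tnf. Among 18 tested genes of the cytotoxic list, none had an unadjusted p under 0.05 and the median was -0.15 (0.04 without mouse 1 and -0.46 without mouse 2). Their summed level was lowest in anti-PD-1 mouse 1 (169 CPM) and highest in mouse 2 (614 CPM), with isotype mice from 238 to 544 CPM, and the difference was -0.77 in libraries up to 60 and 0.52 in those above. NK cell genes spread the same way, from 29.1 CPM in mouse 1 to 148 CPM in mouse 2 against 75.8 to 107 CPM in isotype mice. Klrc1, which encodes an NKG2 receptor of NK and CD8 T cells, was at 3.39 to 7.91 CPM in isotype mice and at 0.739 CPM in mouse 1, 7.59 CPM in mouse 2 and 1.85 to 3.10 CPM in mice 3 to 5.

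Since Cd8a itself varied, the level of each gene was also divided by that of Cd8a in the same tumor, a scale chosen after the values were seen and given as a description with no test. Cd8a was below every isotype mouse in 4 of 5 anti-PD-1 mice, so a gene of unchanged level also rises on this scale in those mice. Counts of mice above the isotype mice therefore cannot show more expression per CD8 T cell. Pdcd1 per Cd8a overlapped widely, from 0.520 to 1.02 in isotype mice and from 0.476 to 0.882 with anti-PD-1. Gzmb per Cd8a was 4.13, 2.41, 6.33, 1.91 and 8.31 in isotype mice and 5.32, 5.62, 24.6, 14.5 and 19.2 in anti-PD-1 mice, so that 3 of 5 lay above all isotype mice and none below. Ifng per Cd8a was 0.0884, 0.0714, 0.113, 0.0433 and 0.0851 in isotype mice and 0.0645, 0.139, 0.235, 0.329 and 0.254 in anti-PD-1 mice, with 4 of 5 above. Havcr2 (TIM-3, carried by exhausted T cells and by myeloid cells, -0.20 ± 0.41 on its own) and Lag3 were also above all isotype mice in 4 of 5 anti-PD-1 mice on this scale, and Prf1 in 3 of 5. These ratios rested on 17 to 361 counts of Cd8a per tumor, and most of these genes are also expressed by NK or myeloid cells, whose part in the ratios was not tested. Cd3e per Cd8a, at 0.405 to 0.493 in isotype mice, was at 1.35, 0.377, 1.12, 0.408 and 0.582 in anti-PD-1 mice, so that this T cell chain too was above all isotype mice in 3 of 5, and below them in 1. Tox per Cd8a was also above in 3 of 5 and below in 1.

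**Figure D2:**
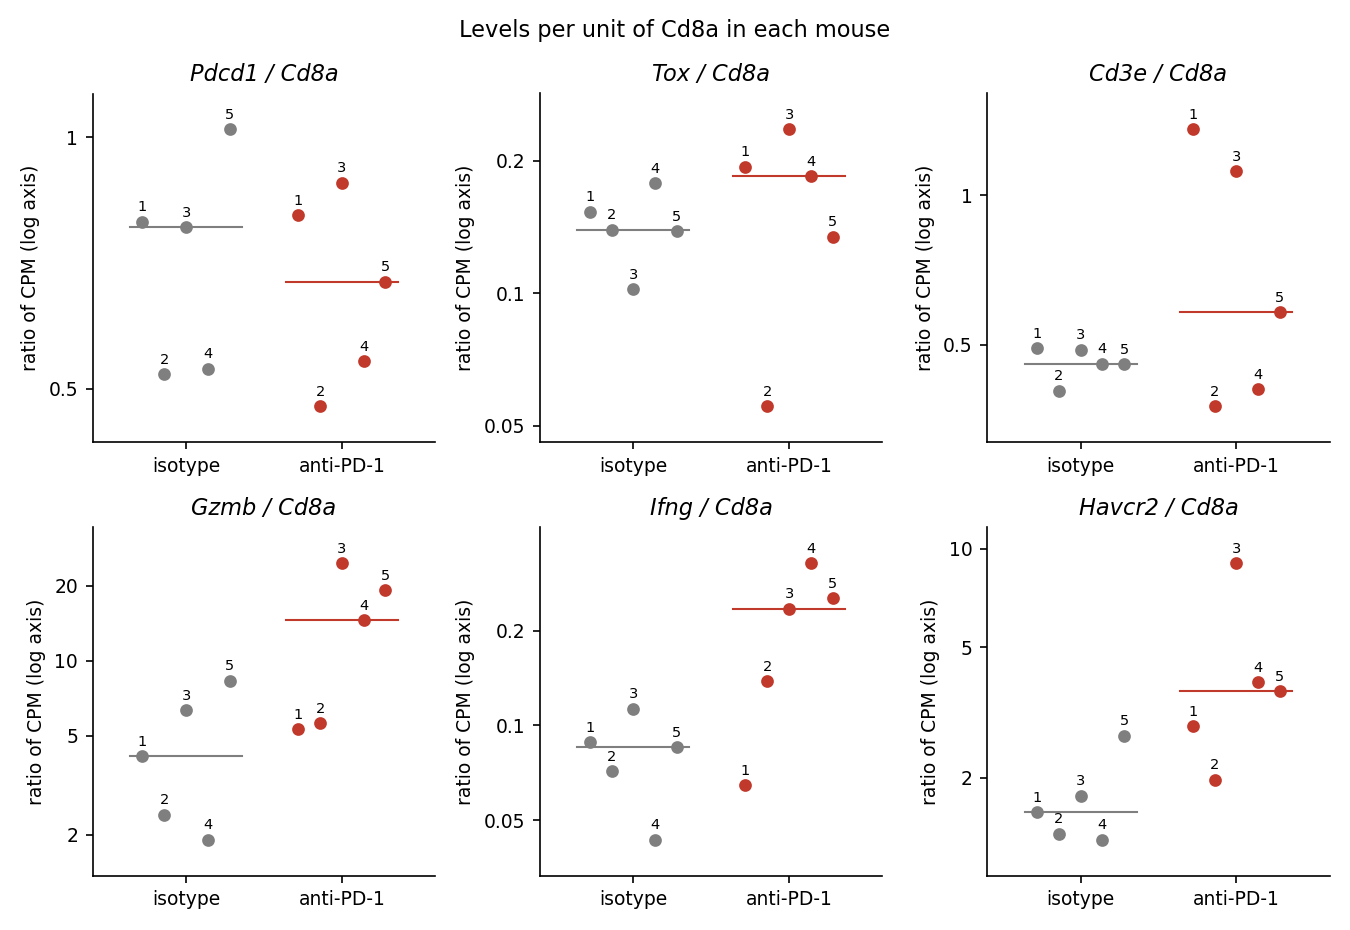
Ratio of the CPM of 6 genes to the CPM of Cd8a in the same tumor (log axis), isotype mice in grey and anti-PD-1 mice in red, with mouse numbers and lines at the medians. Pdcd1 per Cd8a overlaps between the groups, and Ifng and Havcr2 per Cd8a lie above all isotype mice in 4 of 5 anti-PD-1 mice. Cd8a itself was below every isotype mouse in 4 of 5 anti-PD-1 mice, which raises such ratios.

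Cd274, the gene of the IFN-γ-induced ligand PD-L1 (chromosome 19, 29367455 to 29388095, plus strand), was at 124, 101, 71.9, 63.6 and 58.5 CPM in isotype mice and at 19.3, 213, 54.9, 141 and 99.98 CPM in anti-PD-1 mice. Mice 1 and 3 were below and mice 2 and 4 above all isotype mice, and the log2 fold change was 0.33 ± 0.41, which became -0.09 without mouse 2 and 0.60 without mouse 1. Pdcd1lg2, the second ligand, had the same 2 mice at its extremes, 0.812 CPM in mouse 1 and 11.8 CPM in mouse 2, with isotype mice at 1.02 to 6.80 CPM (0.41 ± 0.67). Within library parts Cd274 was lower with anti-PD-1 in libraries up to 60 (difference -0.88) and higher in those above (0.88), and Pdcd1lg2 likewise (-1.002 and 1.15). The IFN-γ response list had the same 2 mice at its ends. The summed level of its 30 genes was 4743, 4602, 3999, 2967 and 2990 CPM in isotype mice and 1255, 6997, 2945, 5585 and 4945 CPM in anti-PD-1 mice. Mouse 1 was the lowest of all 40 mice of the study on this sum (rank 1 from below) and mouse 2 was 2nd from above. Of the 29 tested genes, 28 had a log2 fold change above 0, with a median of 0.13, a largest value of 0.83 and none at an unadjusted p under 0.05. The median was 0.37 without mouse 1 and -0.03 without mouse 2, and the sum differed by -0.66 in libraries up to 60 and by 0.68 in those above. Mouse 2 was the highest of the 10 mice for 23 of the 29 (20.1% of all tested genes), mouse 1 the lowest for 24 (13.1% of all), and both held for 20 of 29 (6.32% of all).

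An example is Cxcl9, a chemokine that attracts T cells, at 89.5 to 240.05 CPM in isotype mice and 27.8, 281, 147, 244 and 247 CPM in anti-PD-1 mice (0.21 ± 0.39, with -0.90 and 0.88 in the 2 library parts). Nos2, the inducible nitric oxide synthase of macrophages, was highest in mouse 2 but not lowest in mouse 1, at 7.97 to 35.6 CPM in isotype mice and 17.7, 82.9, 12.4, 35.2 and 24.9 CPM with anti-PD-1 (0.83 ± 0.55, and 0.21 without mouse 2). Socs1, the feedback inhibitor of the pathway's kinases, gave 0.19 ± 0.21. Socs1 and Cxcl9 were at 0.02 and 0.03 without mouse 2 and at 0.34 and 0.49 without mouse 1.

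The promoters of these genes can be set beside their values. The letters TTCNNNGAA (the gamma-activated site, GAS) and the core of the interferon-stimulated response element (ISRE, bound by IRF factors, read here as GAAA, any 2 bases and GAAA) were searched on both strands in RefSeq windows of GRCm38.p6, from 250 bases before to 50 bases after the start. A GAS can overlap an ISRE core, and a window with both counted once. At least 1 of the motifs was in 14 of the 19 IFN-γ response genes with a window (73.7%), in 11.8% of 9909 tested genes and in 12.9% of all 27025 genes with a window. It was in 7 of 17 cytotoxic genes (41.2%), with a GAS in the windows of Gzmb and Ifng, in 3 of 14 genes of the PD-1 axis (21.4%) and in 1 of 10 T cell genes. Irf1, a transcription factor, and Gbp2, a guanylate-binding protein, are shown because their windows hold a match, and Pdcd1 because its window holds neither. Irf1 has a second window, which holds neither. These examples were chosen after their values were seen, and capitals mark the match.
Irf1 (chr11:53769764-53770063, plus strand, GAS 90 bases before the start): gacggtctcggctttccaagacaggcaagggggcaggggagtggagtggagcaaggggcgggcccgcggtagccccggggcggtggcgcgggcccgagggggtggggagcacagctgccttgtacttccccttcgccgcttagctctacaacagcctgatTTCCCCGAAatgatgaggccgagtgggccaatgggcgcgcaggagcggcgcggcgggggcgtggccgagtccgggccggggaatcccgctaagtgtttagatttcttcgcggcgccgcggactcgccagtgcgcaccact
Gbp2 (chr3:142620413-142620712, plus strand, ISRE core read on the minus strand, 59 bases before the start): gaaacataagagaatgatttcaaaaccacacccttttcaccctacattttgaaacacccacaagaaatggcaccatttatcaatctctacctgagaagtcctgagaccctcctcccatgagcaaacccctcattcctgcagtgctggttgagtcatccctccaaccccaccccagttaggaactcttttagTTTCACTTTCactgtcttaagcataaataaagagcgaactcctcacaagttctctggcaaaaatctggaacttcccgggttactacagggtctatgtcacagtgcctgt
Pdcd1 (chr1:94052504-94052803, minus strand, no match): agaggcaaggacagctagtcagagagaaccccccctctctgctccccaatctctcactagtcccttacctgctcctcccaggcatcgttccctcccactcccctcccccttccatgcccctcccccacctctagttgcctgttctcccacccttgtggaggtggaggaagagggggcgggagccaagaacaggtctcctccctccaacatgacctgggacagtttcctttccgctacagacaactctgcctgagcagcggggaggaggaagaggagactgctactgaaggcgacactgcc
Among the 5 anti-PD-1 mice, though not among the isotype mice for Irf1, the levels of Irf1 and Gbp2 had the order seen for Cd274. Irf1 was at 211 to 358 CPM in isotype mice and at 103, 408, 201, 367 and 325 CPM in anti-PD-1 mice (0.01 ± 0.25, with -0.62 in libraries up to 60 and 0.48 in those above). Gbp2 was at 236 to 438 CPM in isotype mice and at 57.6, 675, 234, 607 and 478 CPM in anti-PD-1 mice (0.25 ± 0.38, with -1.05 and 0.93). The window of Cd274 holds neither motif, so these letters near the start are not shared by every gene with this order of anti-PD-1 mice.

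Among genes of antigen presentation, those of MHC class II had the same 2 mice at their ends. The 13 MHC class II genes summed to 1713 to 3395 CPM in isotype mice and to 753, 5075, 1572, 3012 and 2104 CPM in anti-PD-1 mice, and 10 of the 13 were lowest in mouse 1 and highest in mouse 2. The sum differed by -0.69 in libraries up to 60 and by 0.37 in those above. H2-Ab1, a class II chain, was at 162 to 387 CPM in isotype mice and 74.6 to 634 CPM with anti-PD-1 (0.17 ± 0.52, with -0.80 and 0.52 in the 2 library parts), and Ciita, the master regulator of class II genes, gave 0.42 ± 0.62 (-0.58 and 0.70). Class I genes varied less, with 22 of 23 below 0, a median of -0.11 and no unadjusted p under 0.05. The median was 0.01 without mouse 1 and -0.18 without mouse 2. Class I levels were lowest in mouse 1 for 21 of 23 genes but highest in mouse 2 for 5 of 23, against 20.1% of all genes, and their sum in mouse 2 (14715 CPM) lay within the isotype range (12425 to 15339 CPM). Tap2, a subunit of the peptide transporter, was at 191 to 311 CPM in isotype mice, 121 CPM in mouse 1 and 168 to 289 CPM in the other anti-PD-1 mice. Type I interferon-stimulated genes, which share many promoter elements with IFN-γ targets, were lowest in mouse 1 for 24 of 25 and highest in mouse 2 for 11 of 25, and their sum differed by -0.44 in libraries up to 60 and by 0.27 in those above. Oas2, an antiviral enzyme, was at 49.8 CPM in mouse 1 and at 78.6 to 99.5 CPM in the other 9 mice. For macrophage genes, 12 of 20 were lowest in mouse 1 and highest in mouse 2, but the sum of 5909 to 7995 CPM in anti-PD-1 mice lay close to the isotype range of 5589 to 7948 CPM. The largest part of this sum is Spp1, which was higher in mouse 1 (2615 CPM) than in mouse 2 (1784 CPM). Among the 12, Adgre1 was at 35.5 and 259 CPM in these 2 mice (94.2 to 127 CPM in isotype mice) and Fcgr1 at 36.2 and 181 CPM (90.7 to 108 CPM). Cd163, a scavenger receptor of resident macrophages, also went the other way, with 38.7 CPM in mouse 1 and 3.38 to 16.1 CPM in the other 9.

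The 2 tumors at the ends of the IFN-γ range were also those in which genes of other tissues stood out, and the part of those tissues in the IFN-γ values was not tested. In mouse 2 all 8 tested skeletal muscle genes were the highest of the 10 mice. Ckm, the muscle creatine kinase, was at 22.8 CPM there and at 0.236 to 1.14 CPM elsewhere, and Mylpf, a myosin light chain, at 20.004 against 0.629 to 1.53 CPM. All 8 had an unadjusted p under 0.05, with a median log2 fold change of 2.73 that became 0.44, with none under 0.05, without mouse 2. The other 8 genes of that list did not pass the filter. In skin epithelium, Krt14 and Krt17, keratins of basal and stressed epidermis, had 19.5 and 8.28 CPM in mouse 2 and at most 0.486 and 0.901 CPM elsewhere. Krt14 differed by 2.27 in libraries up to 60, which hold mouse 2, and by -0.42 in those above. Mast cell genes summed to 572 CPM in mouse 2, 127 to 188 CPM in the other anti-PD-1 mice and 109 to 220 CPM in isotype mice. Mcpt4, a mast cell protease, was at 70.6 CPM in mouse 2 and 5.74 to 17.4 CPM elsewhere, and its log2 fold change of 0.96 ± 0.45 became -0.07 without that mouse. Ms4a2, a chain of the high-affinity IgE receptor, went from 1.27 ± 0.61 to 0.08.

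In mouse 1, 12 of 14 adipocyte genes, 19 of 21 fibroblast and matrix genes and 12 of 14 endothelial genes were the highest of the 10 mice (16.9% of all tested genes were highest there). Cidec and Plin4, proteins of the lipid droplet, were at 46.0 and 42.5 CPM in mouse 1 and at no more than 8.47 and 10.2 CPM elsewhere. Cidec differed by -1.12 in libraries up to 60, which hold mouse 1, and by 0.39 in those above. The median of the adipocyte list was 1.22 over all mice and -0.55 without mouse 1. Dcn, a matrix proteoglycan, was at 121 CPM in mouse 1 and 108 CPM in mouse 2, above 21.9 to 47.0 CPM in the other 8 mice (0.94 ± 0.46). B cell genes stood out in the same tumor: Ighd and Ms4a1, the IgD heavy chain and CD20, were at 12.0 and 6.13 CPM in mouse 1 and at most 0.897 and 0.621 CPM elsewhere, and Ccl21a, a chemokine of lymph vessels and lymphoid tissue, at 4.06 against at most 0.314 CPM. In the library parts Ighd differed by 1.90 and -0.25, and Ccl21a by 2.08 and -0.27. The median of the 16 tested B and plasma cell genes was 1.05, and -0.04 without mouse 1.

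**Figure D3:**
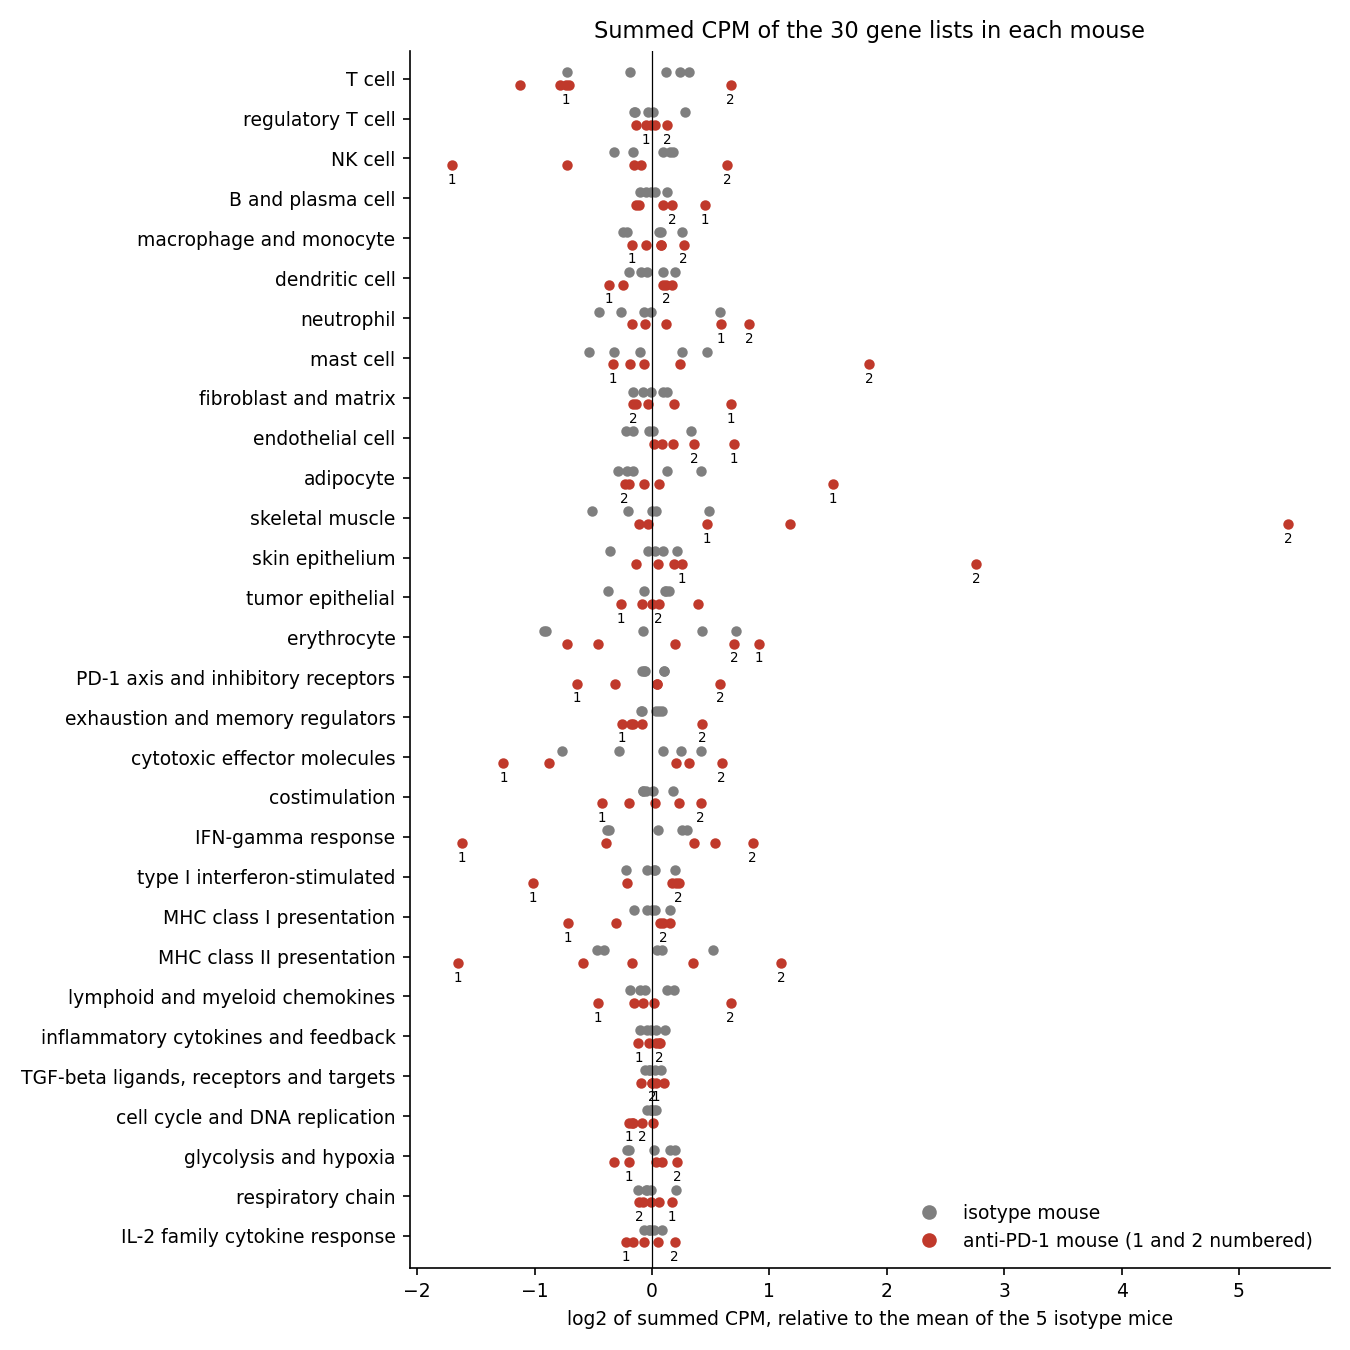
Summed CPM of each of 30 gene lists on the log2 scale, relative to the mean of the 5 isotype mice, for isotype mice (grey) and anti-PD-1 mice (red), with anti-PD-1 mice 1 and 2 numbered. Mouse 2 lies far to the right for skeletal muscle (249 CPM), skin and mast cell genes, mouse 1 for adipocyte genes (2035 CPM), and the same 2 mice bound the range for NK cell, cytotoxic, IFN-gamma and MHC class II genes.

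The larger spread with anti-PD-1 was seen over the whole transcriptome, in milder form. The SD of log2 CPM was larger among anti-PD-1 than among isotype mice for 56.6% of tested genes, with medians of 0.213 and 0.197. Pairs of anti-PD-1 mice correlated across genes with r from 0.946 to 0.991, and pairs of isotype mice with r from 0.980 to 0.990 (genes are not independent, and no test was made). Among anti-PD-1 mice 3 to 5 alone the median SD was 0.149. That value rests on fewer mice, picked after the values were seen, and no isotype mouse was left out. It is therefore not comparable with the medians above. Within the IFN-γ list the SD was larger with anti-PD-1 for 26 of 29 genes, and within the T cell list for 18 of 20.

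The lists of cell cycle and DNA replication, TGF-β and metabolism had median log2 fold changes from -0.11 to 0.06. Of 36 cell cycle and DNA replication genes, 34 had a log2 fold change below 0, with a median of -0.11, a range of -0.20 to 0.07 and no unadjusted p under 0.05. Their sum was 5829 to 6144 CPM in isotype mice and 5238, 5643, 5313, 5363 and 6029 CPM in anti-PD-1 mice, so that 4 of 5 anti-PD-1 mice lay below all isotype mice. Cenpa, the centromeric histone, was at 105 to 132 CPM in isotype mice and 94.8 to 111 CPM with anti-PD-1 (-0.19 ± 0.10). The TGF-β list of ligands, receptors and targets summed to 2176 to 2391 CPM in isotype mice and 2132 to 2440 CPM with anti-PD-1 (median 0.06). Nuclear-encoded respiratory chain genes had a median of 0.02, with no gene beyond -0.09 or 0.13, and glycolysis and hypoxia genes had a median of -0.03, with sums of 16047 to 21320 CPM in isotype mice and 14863 to 21578 CPM with anti-PD-1. Socs3, a feedback inhibitor of cytokine signals, was at 91.5 to 113 CPM in isotype mice and 109 to 115 CPM in 4 anti-PD-1 mice, with 143 CPM in mouse 2 (0.18 ± 0.12). Il7r, the receptor for the survival cytokine IL-7, was at 3.93 to 7.79 CPM in isotype mice, at 2.78 to 5.75 CPM in 4 anti-PD-1 mice and at 21.7 CPM in mouse 2. Among dendritic cell genes Ccr7, the receptor that guides cells to lymph nodes, was at 1.89 to 3.74 CPM in isotype mice and at 6.57 CPM in mouse 1, with 2.45 to 4.13 CPM in the others. None of the costimulation, neutrophil, erythrocyte, tumor epithelial or inflammatory cytokine genes had an unadjusted p under 0.05, and their list medians were -0.04, 0.35, 0.25, 0.33 and 0.01. With 1 mouse left out these medians ran, in this order, from -0.12 to 0.12, 0.09 to 0.53, 0.06 to 0.51, -0.13 to 0.54 and -0.02 to 0.05. In the neutrophil list, S100a8, a calcium-binding alarmin, varied from 0.554 to 10.4 CPM among isotype mice and from 1.15 to 16.4 CPM among anti-PD-1 mice. The labelled tumor cell type could be checked only weakly from its markers, since Krt18, a keratin of simple epithelia, was at 4.48 to 21.1 CPM in the 10 tumors and Cldn4, an epithelial junction protein, at no more than 1.84 CPM.

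To ask whether the same mAb gave like values when it was added to another mAb, the 3 combination groups were compared with the 3 groups that received the partner mAb without anti-PD-1 (15 and 15 mice, none of them among the 10 above). In that comparison 961 of the 14760 genes had an adjusted p under 0.05 (6.51%), 659 higher (4.46%) and 302 lower (2.05%). This count depends on the processing, with 35 calls without the filter on low counts, 500 with only these groups fitted, 1512 with DESeq2's Wald test and 2550 with voom weights. Cd274 was 1.10 ± 0.24 higher on the log2 scale (adjusted p = 0.0202, edgeR), Gzmb 1.18 ± 0.23 (adjusted p = 0.0156), Ifng 1.26 ± 0.27 (adjusted p = 0.0202) and Pdcd1lg2 1.66 ± 0.39 (adjusted p = 0.027). Of the 29 IFN-γ response genes, 19 rose past the threshold, and 8 of 13 MHC class II genes, 13 of 25 type I interferon-stimulated genes, 7 of 10 mast cell genes and 0 of 20 T cell genes did so. Markers of myeloid cells moved with them, with 8 of 20 macrophage and monocyte genes and 3 of 15 dendritic cell genes higher past the threshold, as were 5 of 18 cytotoxic genes, and the part of these cells in the other lists was not tested. Pdcd1 (-0.07 ± 0.35), Cd8a (0.08 ± 0.37) and Tox (-0.62 ± 0.33) did not pass it. These values do not show that the mAb acted differently alone: for the difference itself, alone minus added, 0 of 14760 genes had an adjusted p under 0.05, the smallest adjusted p was 0.996, and 327 genes (2.22%) had an unadjusted p under 0.05. The difference was -0.92 for Gzmb, -1.04 for Ifng, -0.77 for Cd274 and -1.23 for Pdcd1. Their unadjusted p-values in the same edgeR fit were, in this order, 0.0516, 0.0701, 0.111 and 0.095. For Nos2 the values were 0.83 ± 0.55 alone (0.21 without mouse 2) and 1.65 ± 0.32 when added, and for Mcpt4 0.96 ± 0.45 (-0.07 without mouse 2) and 0.87 ± 0.26. With 5 mice per group the interval of Gzmb alone reached from -0.55 to 1.06 and that of Ifng from -0.77 to 1.20.

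**Figure D4:**
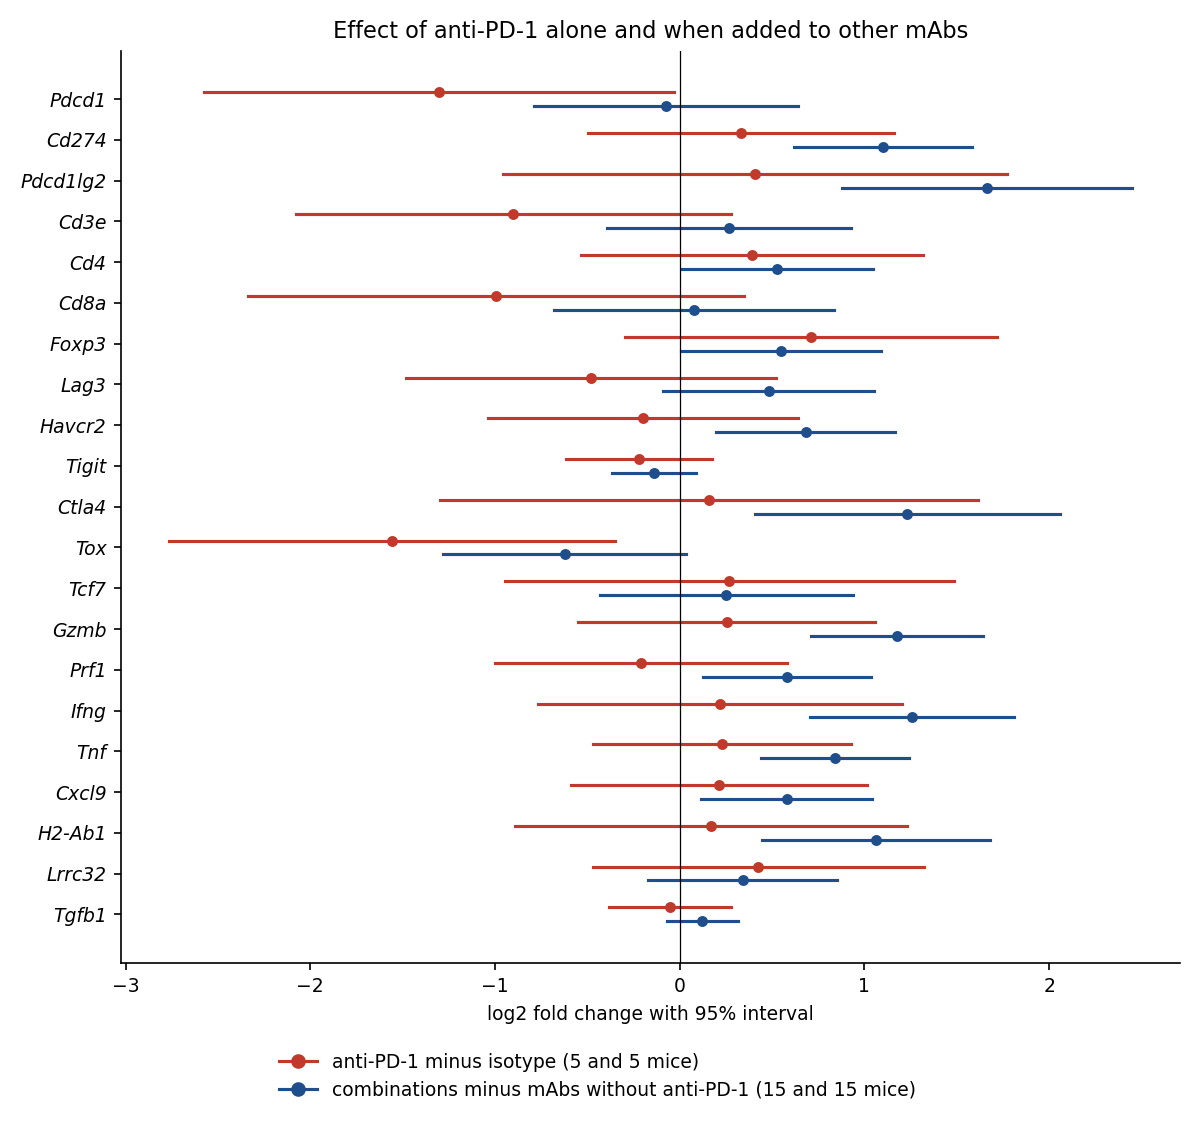
Log2 fold change with 95% interval for 21 genes, for anti-PD-1 minus isotype (red, 5 and 5 mice) and for the 3 combinations minus the 3 mAbs without anti-PD-1 (blue, 15 and 15 other mice). The red intervals are the wider ones and hold 0 for 19 of the 21 genes, all except Pdcd1 and Tox, and the blue points of Cd274, Gzmb and Ifng lie above 1.

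The 40 genes whose mice did not overlap (0.271% of those tested) are represented by the 8 higher and 8 lower genes with the smallest unadjusted p among those with a gene symbol. Predicted gene models and clone names (Gm, Rik, RP23 and RP24), pseudogenes and calendar dates were passed over, which left out 2 higher and 3 lower entries with a smaller p than the last gene named. Of the 8 higher genes, 5 were under 1.6 CPM in all 10 mice. Enox1, a cell-surface oxidase, was at 0.618, 0.598, 1.04, 0.393 and 0.554 CPM in isotype mice and at 1.26, 1.10, 1.57, 1.11 and 1.30 CPM with anti-PD-1 (0.97 ± 0.26, unadjusted p = 0.000734), from 5 to 22 counts per tumor. Slc1a7, a glutamate transporter, was at 0.149 to 0.485 and at 0.591 to 1.07 CPM (1.30 ± 0.45), Vsig2 at 0 to 0.314 and 0.428 to 1.55 CPM (1.97 ± 0.67), and Atp1b2, a sodium pump subunit, at 0 to 0.277 and 0.295 to 0.828 CPM (2.04 ± 0.80). C8g, a chain of complement component C8, was at 0.277 to 0.618 and 0.856 to 1.03 CPM (1.03 ± 0.37). Tnfrsf11b, the decoy receptor osteoprotegerin, gave 0.69 ± 0.36. Ginm1 (0.27 ± 0.12) and Tm2d1 (0.26 ± 0.14) were better covered, at 14.9 to 18.8 CPM in isotype mice and 19.7 to 22.7 CPM with anti-PD-1 for Ginm1.

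Among the 8 lower genes, Cdc25b, the phosphatase that starts mitosis, was at 130, 140, 140, 134 and 140 CPM in isotype mice and at 109, 114, 125, 118 and 119 CPM with anti-PD-1 (-0.23 ± 0.10, unadjusted p = 0.0268, which was 0.05002 to 0.0627 in 3 of 10 fits with 1 mouse left out). Bub1b, a kinase of the spindle checkpoint, was at 81.0 to 86.5 and 69.3 to 78.5 CPM (-0.18 ± 0.09), and Troap, a protein of the mitotic spindle, at 65.8 to 74.6 and 56.4 to 64.3 CPM (-0.24 ± 0.13). Nme7, of the nucleoside diphosphate kinase family, was at 14.03 to 17.6 and 13.0 to 13.9 CPM (-0.24 ± 0.08), and Nphp4, a protein of the cilium base, at 40.3 to 48.4 and 32.007 to 40.0 CPM (-0.22 ± 0.12). Slc35c1, a GDP-fucose transporter, gave -0.19 ± 0.10, Oit3 -0.83 ± 0.31 and Prkag3, a subunit of AMP-activated kinase, -0.53 ± 0.26. In the 30 other mice, 7 of these 8 also had a log2 fold change below 0 when anti-PD-1 was added, and 3 passed the threshold, Cdc25b (-0.19 ± 0.06, adjusted p = 0.0446, edgeR), Nphp4 (-0.23 ± 0.07, adjusted p = 0.0413) and Troap (-0.25 ± 0.07, adjusted p = 0.0396), where 2.05% of all tested genes passed it in this direction. This count depends on the entries passed over: with gene models kept, the 8 lower entries with the smallest p were all below 0 and 1 passed. Of all 24 lower entries, 21 were below 0, 4 passed lower and 1 passed higher, and of all 16 higher entries 9 were above 0 and 0 passed. Of the 8 higher genes, 5 kept their sign and 0 passed, and Enox1 (0.05 ± 0.15) and Vsig2 (-0.01 ± 0.34) were near 0. Slc1a7 was at -0.76 ± 0.27 there.

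**Figure D5:**
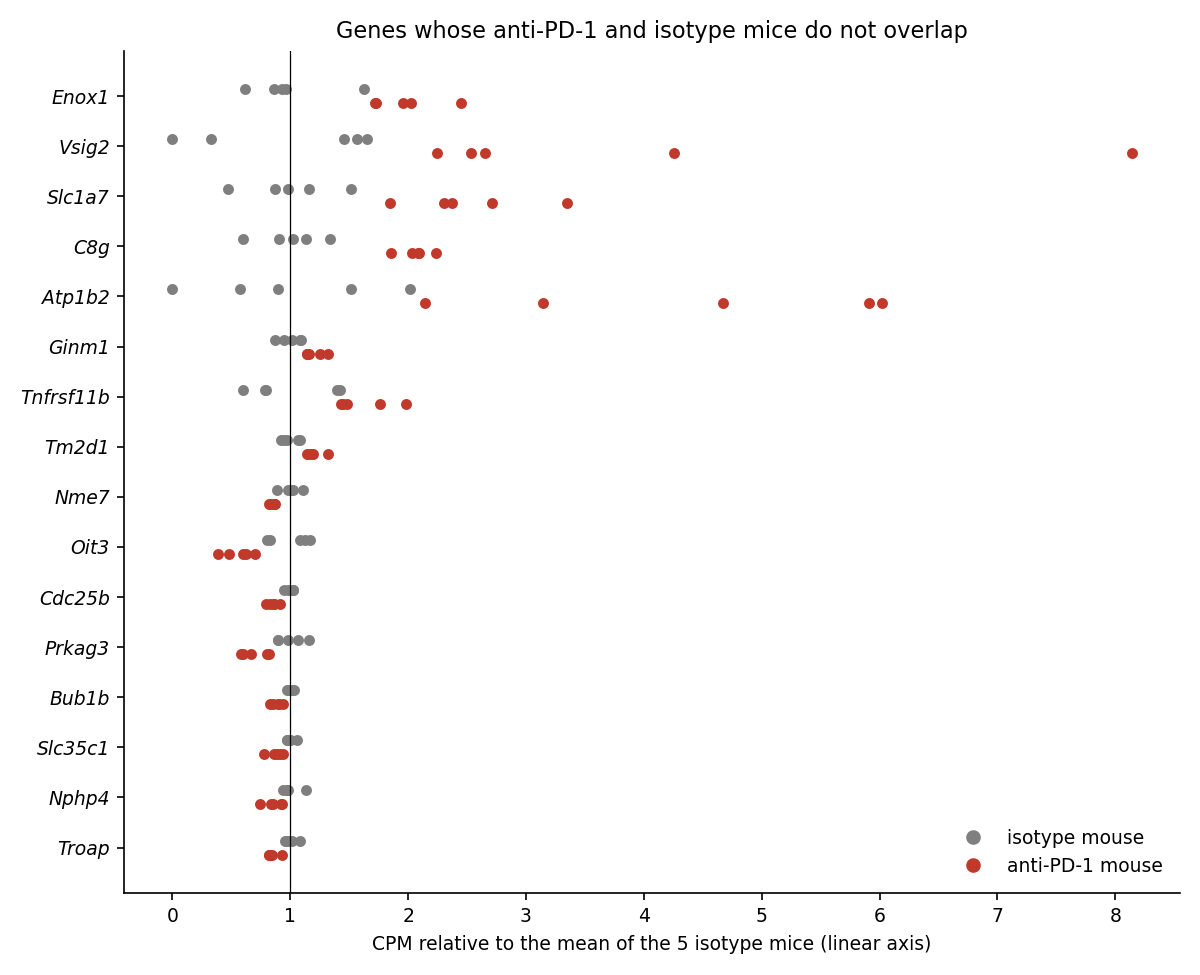
CPM relative to the mean of the 5 isotype mice (linear axis) for the 8 higher and the 8 lower named genes whose anti-PD-1 mice (red) and isotype mice (grey) do not overlap. The higher genes with the widest spread, Vsig2 and Atp1b2, are among those under 1.6 CPM, and Cdc25b, Bub1b and Troap differ by small amounts between 2 narrow groups.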

How the data were processed

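Tumor fragments of 40 mice were processed by the authors into TruSeq stranded mRNA libraries and sequenced as paired-end reads, which, per the labels and the submitters' processing notes, were aligned to GRCm38 with STAR 2.5.3a (SAMtools 1.6) and counted per gene with HTSeq 0.9.1. The deposited values are raw counts of 54087 genes. The annotation and the strand setting are not given in the sources used here, so overlapping genes may share reads. Of these, 27 gene names are written as calendar dates.

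Here, edgeR 4.0.16 (R 4.3.3) was used with TMM factors, filterByExpr and the robust quasi-likelihood test (2-sided, Benjamini-Hochberg over 14760 genes) in 1 model of the 8 groups. SEs were taken from the log2 fold change and its F statistic. Log2 CPM used a prior count of 2. Replicate tumors are separate mice. Pairs within a group differed beyond counting noise (chi-square per degree of freedom of at least 5.80). Named genes are 22 T cell, PD-1 and IFN-γ genes, the 8 higher and 8 lower non-overlapping genes with the smallest p (gene models, clone names, pseudogenes and calendar dates passed over), and the 2 members of each list with the smallest p, some of which are not reported here. Members, lists and tests were chosen with earlier results of these data known. Ratios to Cd8a, the genes whose promoters are shown, list medians without mouse 1 or 2, counts over all non-overlapping genes, and the library part together with left-out mice were added after seeing the data. Alternatives were DESeq2 1.42.0 (size factors and Wald test), no filter, only the groups compared, the library part as a covariate, and voom weights (limma 3.58.1). Gene positions are from a GENCODE annotation of GRCm38. The test was checked on simulated data.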

Additional observations from a re-analysis of the deposited data

Results flagged for a closer look

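A value was marked where 1 mouse of a group of 5 stood apart from the other 4 by more than 0.71 of the group's whole range (Dixon's ratio). Of 192 groups of 5 checked, 34 were marked. For a single group chance gives about 1 in 20, but that rate is no reference for this count, since list sums stand beside their own members and many genes were chosen as the list members with the smallest p. Anti-PD-1 mouse 2 accounts for 19 of them and mouse 1 for 7. No explanation was tested for these values.

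In anti-PD-1 mouse 2, T cell genes stood apart from those of the other anti-PD-1 mice: the T cell list summed to 234 CPM (67.7 to 90.2 CPM in the other 4) and the list of exhaustion and memory regulators to 354 CPM (220 to 249 CPM). Pdcd1 was at 11.9, Cd3e at 9.38, Cd4 at 3.24, Cd8a at 24.9, Lag3 at 17.3 and Zap70 at 6.28 CPM there. Il7r was at 21.7 and Socs3 at 143 CPM. The same tumor was marked for genes of other tissues. The mast cell list summed to 572 CPM, with Mcpt4 at 70.6 and Ms4a2 at 5.10 CPM. The skeletal muscle list summed to 249 CPM, with Ckm at 22.8 and Mylpf at 20.004 CPM, and the skin epithelium list to 47.8 CPM, with Krt14 at 19.5 and Krt17 at 8.28 CPM.

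In anti-PD-1 mouse 1, the adipocyte list summed to 2035 CPM (594 to 727 CPM in the other 4), with Cidec at 46.0 and Plin4 at 42.5 CPM. Ighd was at 12.0, Ms4a1 at 6.13, Ccl21a at 4.06 and Cd163 at 38.7 CPM.

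In the other mice the marked values were Troap at 64.3 CPM in anti-PD-1 mouse 3, Tcf7 at 2.99 CPM in isotype mouse 2, Tgfb1 at 110 CPM in isotype mouse 3, Slc35c1 at 36.1, Nphp4 at 48.4 and Ccl21a at 0.314 CPM in isotype mouse 4, Ighd at 0.124 CPM in isotype mouse 1 and Krt17 at 0.901 CPM in isotype mouse 5.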

How the results depend on the processing

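The count of 0 genes called for anti-PD-1 against isotype was found with every alternative and every left-out mouse except DESeq2's Wald test, which called 1 gene (Myh1, a skeletal muscle myosin). At an unadjusted p under 0.05 the 141 genes became 726 without the filter, 289 with the Wald test and 544 with voom weights, and 120 to 262 with 1 mouse left out (219 without isotype mouse 3, 262 without anti-PD-1 mouse 5). With the library part as a covariate as well, these 2 were 234 and 245. For anti-PD-1 added to the other mAbs the 961 calls became 35 without the filter, 1512 with the Wald test, 500 with only the groups compared and 2550 with voom weights. The difference of the 2 effects gave 2 calls with the Wald test (Acta1 and Myh1). The causes were not tested.

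Of 47 fold changes given, 33 kept their sign in all alternatives and 14 did not, and no value had an adjusted p under 0.05. With voom weights, Ctla4 was -0.031 and Ifng -0.18. With 1 mouse left out the ranges were -0.091 to 0.60 for Cd274, -0.31 to 0.81 for Pdcd1lg2, -0.77 to 0.028 for Havcr2, -0.45 to 0.38 for Ctla4, -0.15 to 0.52 for Gzmb, -0.47 to 0.027 for Prf1, -0.45 to 0.50 for Ifng, -0.27 to 0.47 for Tnf, -0.32 to 0.41 for H2-Ab1, -0.11 to 0.0050 for Tgfb1, -0.070 to 1.16 for Mcpt4, -0.15 to 0.66 for Ciita, -0.17 to 0.22 for Irf1 and -0.0073 to 0.52 for Gbp2. For each of these genes the lower end came without anti-PD-1 mouse 2. No paired analysis was possible because the labels give no replicate numbers shared by the groups. Genes at a few counts per tumor, such as Ifng, Foxp3 and Vsig2, rest on few reads, and the part of depth in their spread was not tested.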
